A study of Drosophila melanogaster with 4 samples.

Results

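Cluster 12 of the deposited control clustering held 88 of the 15280 control nuclei, in a series of 25141 nuclei. Its members are the nuclei that carry cluster number 12 in the deposited control table. They were described by library against the nuclei of the 15 other clusters, and 5 genes, *Obp56d*, *GstD11*, *Ggamma30A*, *Nha1* and *EbpIII*, served as their markers. Replicate 1 of the controls held 50 of the members, which was 0.693% of its nuclei, and replicate 2 held 38, which was 0.471%. All 50 nuclei of replicate 1 carried at least 1 of the 5 markers, whereas 35 of the 38 nuclei of replicate 2 carried none, so the members are called here by their cluster number and library and not by a cell type.

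The study sequenced RNA of single nuclei from the abdominal cuticle of adult male *Drosophila melanogaster*, a preparation that holds adipose tissue, muscle and oenocytes, and compared flies in which oenocytes expressed Tsc1 and Tsc2 with flies in which they expressed EGFP. The oenots>tsc1,tsc2 flies carried UAS-Tsc1 and UAS-Tsc2, and the oenots>EGFP controls carried UAS-2xEGFP. Both genotypes were in a w1118 background with the oenocyte driver PromE-GAl4 and tub-Gal80ts, which holds the driver off at 18 °C, and both were moved to 29 °C for 4 days before dissection. Each genotype had 2 libraries, and each library pooled 40 abdomens, dissected to take out the gut and the male genital tract. A library is thus a pool of animals. The study's text notes that this driver is also active in male accessory glands, and whether it is active in the nuclei described here was not tested. The clusters were deposited for the oenots>EGFP libraries only.

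Several of the genes that lead cluster 12 are known from transporting epithelia of the fly. The hindgut is an ectodermal tube that takes back ions and water before waste leaves the body, and its formation depends on the transcription factors encoded by *byn* (brachyenteron) and *fkh* (fork head), with *otp* (orthopedia) expressed in the same tube. In insect epithelia the vacuolar proton ATPase (V-ATPase) and the sodium-potassium ATPase build the gradients that drive potassium channels, cotransporters and proton exchangers. Odorant-binding proteins such as Obp56d are small secreted proteins that bind hydrophobic ligands, GstD11 belongs to the glutathione S-transferases of the delta class, Ggamma30A is a gamma subunit of heterotrimeric G proteins, and EbpIII was named after the ejaculatory bulb of the male tract.

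Values are counts of unique molecular identifiers (UMIs, one per captured RNA molecule), summed over nuclei and scaled to the total UMIs of that sum (CPM, the usual counts-per-million scale). The oenots>tsc1,tsc2 libraries held 7594 and 2267 nuclei with 3972281 and 1449112 UMIs, and the oenots>EGFP libraries 7213 and 8067 nuclei with 3256566 and 3924035 UMIs, over 13955 genes. Cluster 12 had 31900 UMIs in replicate 1 and 19368 in replicate 2, with a median of 563.5 and 442 UMIs per nucleus, against 371 and 417 in the other control nuclei. A gene at 0 in cluster 12 could have been at up to 94.0 CPM in replicate 1 and 155 CPM in replicate 2, taking 3 UMIs as the limit that a count of 0 allows, and 0 nuclei with a UMI allows a share of up to 7.89% in replicate 2. Intervals and limits cover counting error only. Of the barcodes, 74 occurred in both oenots>EGFP libraries, and 1 barcode of cluster 12 was also found in the other library, in a nucleus outside cluster 12.

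The 5 markers separated cluster 12 from the other nuclei in replicate 1 and hardly at all in replicate 2. *Obp56d* (FBgn0034470, chromosome arm 2R, 19702924 to 19703915 on the Release 6 assembly) reached 28025 CPM in replicate 1 nuclei of cluster 12, against 97.7 CPM in the other nuclei of that library. It was found in 26 of the 50 nuclei, which is 52% with a Wilson 95% interval of 38.5% to 65.2%, and those nuclei carried 5 to 91 UMIs of it with a median of 25. In cluster 12 of replicate 2 it had 0 UMIs in 38 nuclei, against 31.8 CPM in the other nuclei. With every nucleus thinned to 200 UMIs, to even out depth, the share with *Obp56d* was 52% and 0% in cluster 12 of the replicates, against 0.977% and 0.423% of the other nuclei. Replicate 1 thus carried *Obp56d* at a level that the depth of replicate 2 would have shown.

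*GstD11* (3R, 12383336 to 12385624) had 108 UMIs in 15 nuclei of cluster 12 in replicate 1, or 3386 CPM, and 0 UMIs in replicate 2. The other nuclei had 9.6 and 0.77 CPM. *Ggamma30A* (2L, 9256563 to 9302494) was the most widely found marker apart from *EbpIII*, in 30 of the 50 nuclei of replicate 1, with 1912 CPM there and 103 CPM in replicate 2, against 11 and 1.3 CPM in the other nuclei. *Nha1* (2L, 6860905 to 6870389), named for the sodium-proton antiporter family, was at 1850 CPM in replicate 1, from 59 UMIs in 16 nuclei. It was at 103 CPM in replicate 2, against 18.0 and 5.4 CPM in the other nuclei of the replicates. Both values of 103 CPM stand for 2 UMIs in 1 nucleus.

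*EbpIII* (2R, 24026172 to 24027518) was the marker carried by most nuclei, 38 of 50 in replicate 1, with 3 to 88 UMIs each. In replicate 2 it was in 3 of 38. Its level outside cluster 12 was also the highest of the 5 markers, at 720 and 464 CPM, so that a UMI of *EbpIII* alone separates these nuclei least. All 50 nuclei of replicate 1 carried at least 1 marker, and 45 of them carried 2 or more. In replicate 2, 35 of the 38 nuclei carried none.

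Against each other cluster taken singly, cluster 12 had the highest level of all 5 markers in replicate 1. The nearest levels there were 316 CPM of *Obp56d* in cluster 14, 231 CPM of *Nha1* in cluster 7 and 15293 CPM of *EbpIII* in cluster 11. In replicate 2 it ranked the 11th of 16 for *Obp56d*, where cluster 3 was highest at 156 CPM, and the second for *EbpIII*, where cluster 3 stood at 2370 CPM. It ranked the first for *Ggamma30A*, at 103 CPM with cluster 5 next at 12 CPM, and for *Nha1*, at 103 CPM with cluster 7 next at 101 CPM, each from 2 UMIs. The clusters were built on all genes of these nuclei, so these levels describe cluster 12 and are not a test of it.

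**Figure D1:**
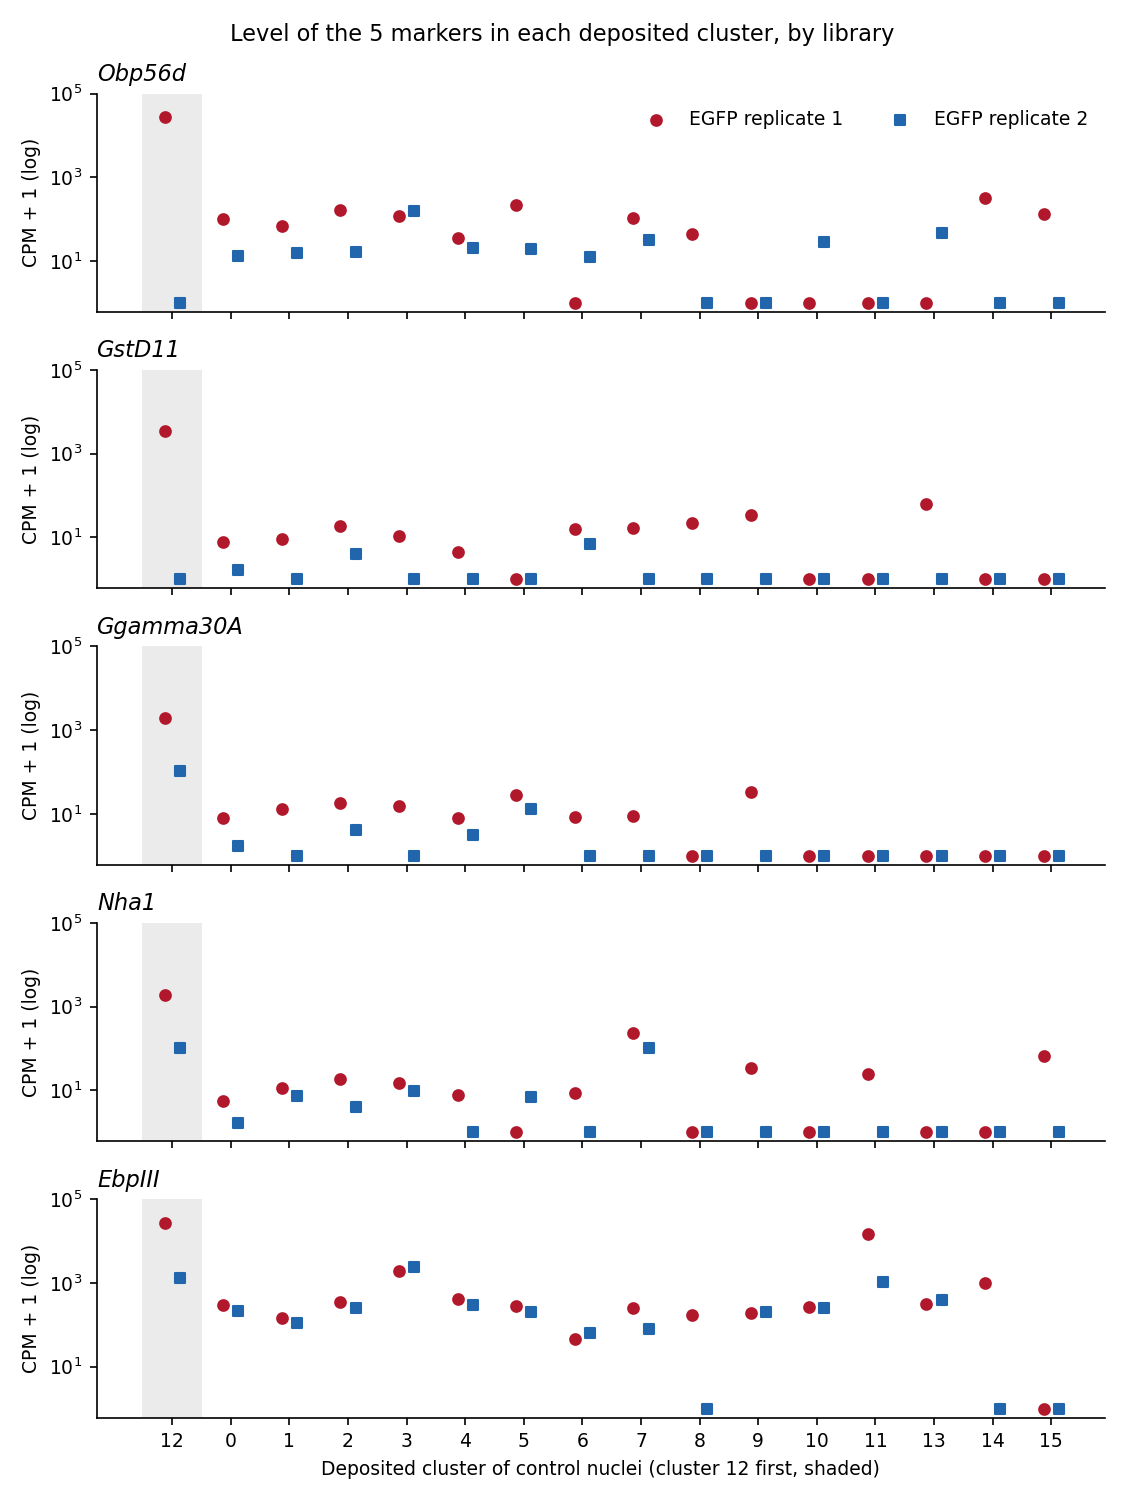
Levels of the 5 markers in each deposited cluster, in CPM on a log axis, with 1 added, with a panel per marker and a point per oenots>EGFP library (cluster 12 shaded, at the left). Cluster 12 of replicate 1 stands above the 15 other clusters for all 5 markers, whereas in replicate 2 it is at 0 for *Obp56d* and *GstD11* and below cluster 3 for *EbpIII*.

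A gene was called leading where it had at least 10 UMIs in cluster 12, at least 1 UMI in it in each library, and at least 2-fold the CPM of the other nuclei in each library. Of 6319 genes with a UMI in cluster 12, 185 (2.93%) met this rule. The first 20 by mean log2 fold were *CG34203*, *Cpr62Ba*, *CG8170*, *byn*, *CG14949*, *Ggamma30A*, *CG9993*, *CG15870*, *Irk2*, *ect*, *Ekar*, *Nha1*, *Picot*, *Snmp2*, *Rh50*, *fkh*, *retn*, *CG33970*, *NKCC* and *drd*. *CG8170*, *byn*, *CG15870* and *Snmp2* overlap a gene on the opposite strand, and the sources used here do not give the strand setting of the counting.

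Many of the first 20 leading genes rested on 1 nucleus in replicate 2. Of the first 20, 13 had UMIs in a single nucleus of replicate 2, and of all 185 leading genes 27 did. One nucleus of 682 UMIs, the only one of that library with at least 2 markers, carried 16 of the first 20, and 12 of these in no other cluster 12 nucleus of replicate 2. It held 42 of the 43 UMIs of *CG34203*, 20 of the 25 UMIs of *EbpIII*, and the UMIs of *byn*, *otp*, *Nha1* and *Ggamma30A*. Its 46 UMIs of V-ATPase genes came to 67449 CPM, against 4228 CPM in the 37 other cluster 12 nuclei of replicate 2.

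Transporters were among the leading genes. *Irk2*, an inwardly rectifying potassium channel, was at 1661 and 516 CPM in cluster 12, against 14.3 and 13.6 CPM in the other nuclei, from 20 nuclei of replicate 1 and 4 of replicate 2. *Picot*, named as a putative inorganic phosphate cotransporter, was at 2476 and 723 CPM, from 16 and 6 nuclei. *Rh50*, of the ammonium transporter family, was, with *drd*, among the first 20 the exception in having a higher level in replicate 2, at 408 and 929 CPM in the replicates in order, against 23.9 and 14.6 CPM elsewhere. *NKCC*, a sodium-potassium-chloride cotransporter, had 596 CPM in replicate 1 and 1 UMI in replicate 2.

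*CG34203*, *Snmp2* and *CG33970* were also among the leading genes. *CG34203* was at 2947 and 2220 CPM in cluster 12, against 14.9 and 2.0 CPM elsewhere, and no role is given for it here. *Snmp2*, which encodes a sensory neuron membrane protein of the CD36 family, was at 2288 CPM in 26 nuclei of replicate 1 and at 207 CPM in 4 nuclei of replicate 2. *CG33970*, an ABC transporter gene, was at 6426 CPM in 31 nuclei of replicate 1 and 258 CPM in 3 nuclei of replicate 2, against 77.2 and 21.3 CPM.

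The hindgut regulators were found together with the markers in replicate 1. A UMI of *byn*, *fkh* or *otp* was present in 22 of the 50 cluster 12 nuclei (44%) of replicate 1, against 0.60% of the other nuclei, and in 2 of 38 (5.26%) in replicate 2, against 0.162%. *byn* (3L, 11927693 to 11935919) had 10 UMIs in 8 nuclei of cluster 12 in replicate 1, 313 CPM, against 0.62 CPM in the other nuclei. *fkh* (3R, 28580976 to 28585264) had 24 UMIs in 16 nuclei, 752 CPM against 11.5 CPM, and *otp* (2R, 20883625 to 20903414) had 8 UMIs in 8 nuclei, 251 CPM against 2.2 CPM. In replicate 2 *byn*, *fkh* and *otp* had 1 UMI each. Thinned to 200 UMIs per nucleus, the shares in replicate 1 were 6% for *byn*, 10% for *fkh* and 8% for *otp* in cluster 12, against 0.014%, 0.195% and 0.028% of the other nuclei.

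Of the 9 listed hindgut regulators, 4 were at least 2-fold higher with at least 3 UMIs in replicate 1, the fourth being *bowl* with 4 UMIs. In the same library 7.06% of all 11536 genes with a UMI met that rule. In replicate 2, 0 of 8 did, against 6.72% of 11289 genes. The labels state that the intestines were removed by dissection, and how much hindgut remained in the preparation was not tested.

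V-ATPase genes were high in cluster 12 of both libraries. In replicate 1, 14 of 18 subunit genes were at least 2-fold higher with at least 3 UMIs, and their summed level was 28934 CPM in cluster 12, against 1983 CPM in the other nuclei. In replicate 2, 13 of 18 met the rule, with 6454 CPM against 1680 CPM. There 46 of the UMIs came from the single nucleus with several markers, and the other cluster 12 nuclei were at 4228 CPM. Of all genes, 7.06% met it in replicate 1 and 6.72% in replicate 2. The median log2 fold of the list, with 50 CPM added to both values, was 3.33 in replicate 1 and 1.36 in replicate 2, beside -0.11 and -0.05 over all genes. *Vha16-1*, a subunit of the proton channel, was its highest member, at 6803 and 1239 CPM, against 817 and 638 CPM in the other nuclei.

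Of 25 genes of ion and water transport, 7 were at least 2-fold higher with at least 3 UMIs in each library, beside 7.06% and 6.72% of all genes. The list summed to 13511 and 4853 CPM in cluster 12, against 2104 and 2032 CPM. Its median log2 fold was -0.22 in replicate 1 and 0.63 in replicate 2, so that in replicate 1 a few members carried the sum. *Atpalpha*, the catalytic subunit of the sodium-potassium ATPase, was at 6113 and 1291 CPM, against 835 and 894 CPM, and *CAH1*, a carbonic anhydrase that overlaps *Adat1*, was at 1944 and 723 CPM, against 170 and 208 CPM.

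Markers of other cell types differed between the libraries. *apolpp* or *CG13868*, adipose genes that are among the most widely detected of the preparation, had a UMI in 2 of 50 cluster 12 nuclei (4%) of replicate 1, against 58.5% of the other nuclei, and in 22 of 38 (57.9%) of replicate 2, against 62.7%. The adipose list of 9 genes summed to 2288 and 27571 CPM in cluster 12, against 34792 and 37200 CPM. The muscle list of 14 genes summed to 3448 and 1549 CPM, against 11017 and 10108 CPM. In the adipose genes, replicate 1 nuclei of cluster 12 lay far below the rest of their library, and those of replicate 2 near it.

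Lists of other gut and excretory cells were low in replicate 1. The 13 midgut enterocyte genes summed to 251 CPM in cluster 12, against 3760 CPM, and the 8 genes of Malpighian tubule principal cells to 62.7 CPM, against 932 CPM. In replicate 2 these sums were 1394 CPM, against 1508 CPM, and 1136 CPM, against 515 CPM. Lists of neurons, sensory organs, male germline and heart had 0 UMIs in cluster 12 of replicate 1, and summed to 308 CPM or less in the other nuclei. In replicate 1 the ejaculatory bulb list summed to 33229 CPM, against 1795 CPM, of which *EbpIII* made 27147 CPM, and the 13 accessory gland genes to 188 CPM, against 1858 CPM.

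Glial genes were present at low counts. *repo*, the defining transcription factor of glia, had a UMI in 3 of 38 cluster 12 nuclei of replicate 2 and in 0 of 50 of replicate 1, against 4 and 9 of all other nuclei. The glia list summed to 752 and 1188 CPM in cluster 12, against 438 and 477 CPM. In each library 2 of its 6 members were at least 2-fold higher with at least 3 UMIs, beside 7.06% and 6.72% of all genes. With the single nucleus of several markers left out, replicate 2 was led by *Rh50*, 66.0-fold over the other nuclei from 18 UMIs in 5 nuclei, *Irk2*, 39.4-fold, *blot*, a transporter-like gene, 28.2-fold from 102 UMIs in 11 nuclei, and *CG32032*, 25.7-fold. These 4 genes were ranked after their values were seen.

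The 5 genes with the lowest mean fold among those at 2000 CPM or more elsewhere were *FASN1*, *CG6503*, *CG16904*, *CG13868* and *Pli*. All 5 were at 0 in cluster 12 of replicate 1, so under 94.0 CPM, against 2050 to 6464 CPM elsewhere. In replicate 2 they stood at 361, 4492, 620, 4492 and 1549 CPM. *FASN1* encodes a fatty acid synthase and *Pli* the ubiquitin ligase Pellino of Toll signalling.

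Within replicate 1, cluster 12 fell into 2 sets of nuclei on the deposited embedding. The widest gap along the first embedding axis lay between 10.94 and 11.06, and a cut at 11, chosen after the positions were seen, left 24 nuclei at the lower coordinates (side A) and 26 at the higher ones (side B). They held 16132 and 15768 UMIs. Of the members of both libraries, 11 lay within 0.2 of the cut, on an axis that ran from 10.4 to 11.37. Replicate 2 had 20 nuclei on side A and 18 on side B. The embedding was computed from these genes, so differences between the sides are descriptions with no test.

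**Figure D2:**
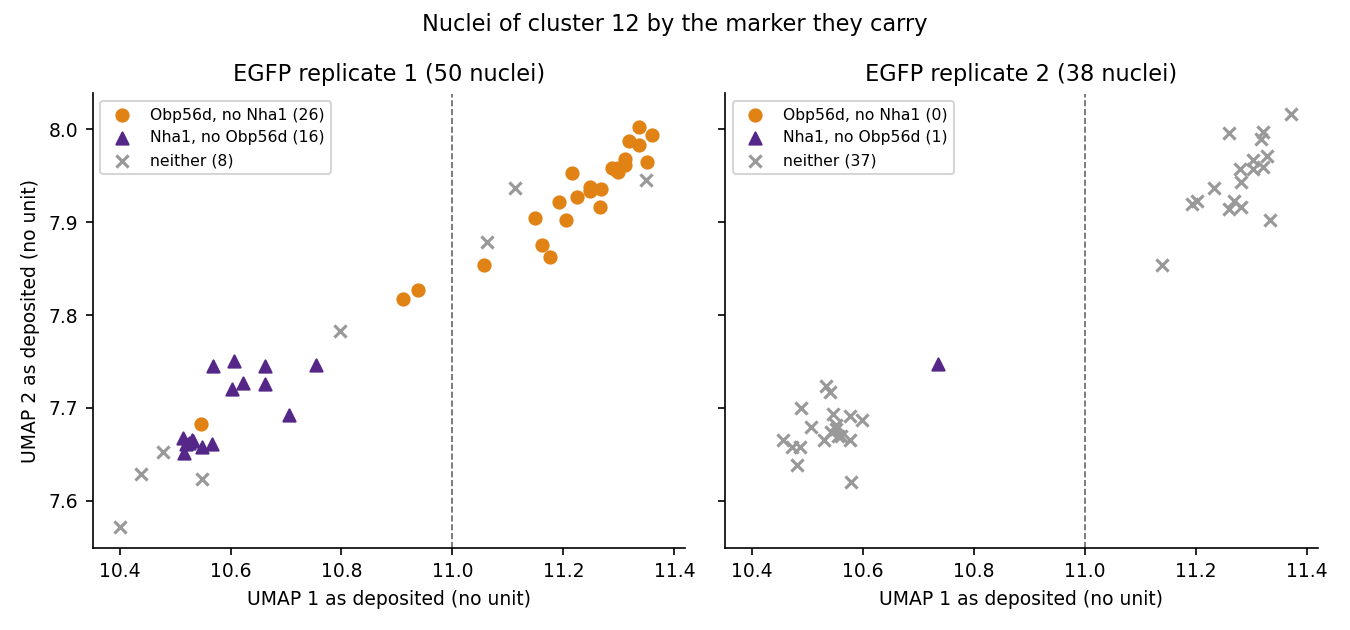
Position of the 88 cluster 12 nuclei on the deposited embedding, first UMAP axis against second (no unit), with a panel per oenots>EGFP library, nuclei with *Obp56d* as circles, with *Nha1* as triangles and with neither as crosses, and the cut at 11 dashed. In replicate 1 the 16 nuclei with *Nha1* lie left of the cut and 23 of the 26 with *Obp56d* right of it, and in replicate 2 the sets are further apart with 37 nuclei carrying neither.

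*Nha1* and *Obp56d* marked opposite sides of replicate 1. *Nha1* was at 3657 CPM on side A, in 16 of 24 nuclei, and at 0 UMIs on side B. *Obp56d* was at 4649 CPM on side A, in 3 nuclei, and at 51941 CPM on side B, in 23 of 26 nuclei. *GstD11* was at 124 CPM on side A and 6722 CPM on side B, *EbpIII* at 9794 and 44901 CPM, and *Ggamma30A* at 2789 and 1015 CPM. No cluster 12 nucleus carried both *Obp56d* and *Nha1*, where 26 carried *Obp56d* and 16 carried *Nha1* in replicate 1.

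The V-ATPase genes were a feature of side A. Per nucleus of replicate 1, their summed level had a lowest, median and highest value of 0, 55112 and 87234 CPM on side A and of 0, 2735 and 11027 CPM on side B. Of 16 V-ATPase genes with a UMI, 15 were higher on side A and 1 on side B, and 5 had none on side B. Summed over nuclei, the list was at 53372 CPM on side A and 3932 CPM on side B. A cut at the lower end of the sparse zone gave 56370 and 4119 CPM.

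Genes of ion transport lay on the same side as *Nha1*. *Irk2* was at 3099 CPM on side A and 190 CPM on side B, *Atpalpha* at 9050 and 3108 CPM, and *NKCC* at 1116 and 63.4 CPM. *CAH1*, *Picot* and *CG34203* were at 3843, 4897 and 5827 CPM on side A and at 0 UMIs on side B. Mitochondrially encoded genes, added after the data were seen, summed to 44260 CPM on side A and 444 CPM on side B, and their part in the separation was not tested.

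Side B of replicate 1 carried another set. *Abd-B*, the posterior Hox gene, was at 124 CPM on side A and 6913 CPM on side B, in 1 and 19 nuclei. *Baldspot*, a fatty acid elongase gene, was at 868 and 12747 CPM, *CG13618* at 372 and 10718 CPM, and *CG33970* at 1116 and 11860 CPM. *CG4928* was high on both, at 9670 and 23909 CPM. *Baldspot* and *CG4928* are named here after their values were seen.

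The hindgut regulators did not follow this split as a group. *byn* was in 7 nuclei of side A and 1 of side B, *fkh* in 9 and 7, and *otp* in 4 and 4. A UMI of any of them was present in 13 of 24 nuclei of side A and 9 of 26 of side B. *fkh* stood at 806 and 698 CPM and *otp* at 248 and 254 CPM, each from 13 UMIs or fewer a side.

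In replicate 2 the sides differed in other genes. All 3 nuclei with *repo* and all 5 with *Rh50* were on side A, and the 3 with *EbpIII* too. *apolpp* or *CG13868* was in 5 of 20 nuclei of side A and 17 of 18 of side B, and the adipose list summed to 9683 and 47572 CPM. The V-ATPase list summed to 9194 CPM on side A and 3390 CPM on side B, and 46 of the 94 UMIs of side A came from the single nucleus with several markers.

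**Figure D3:**
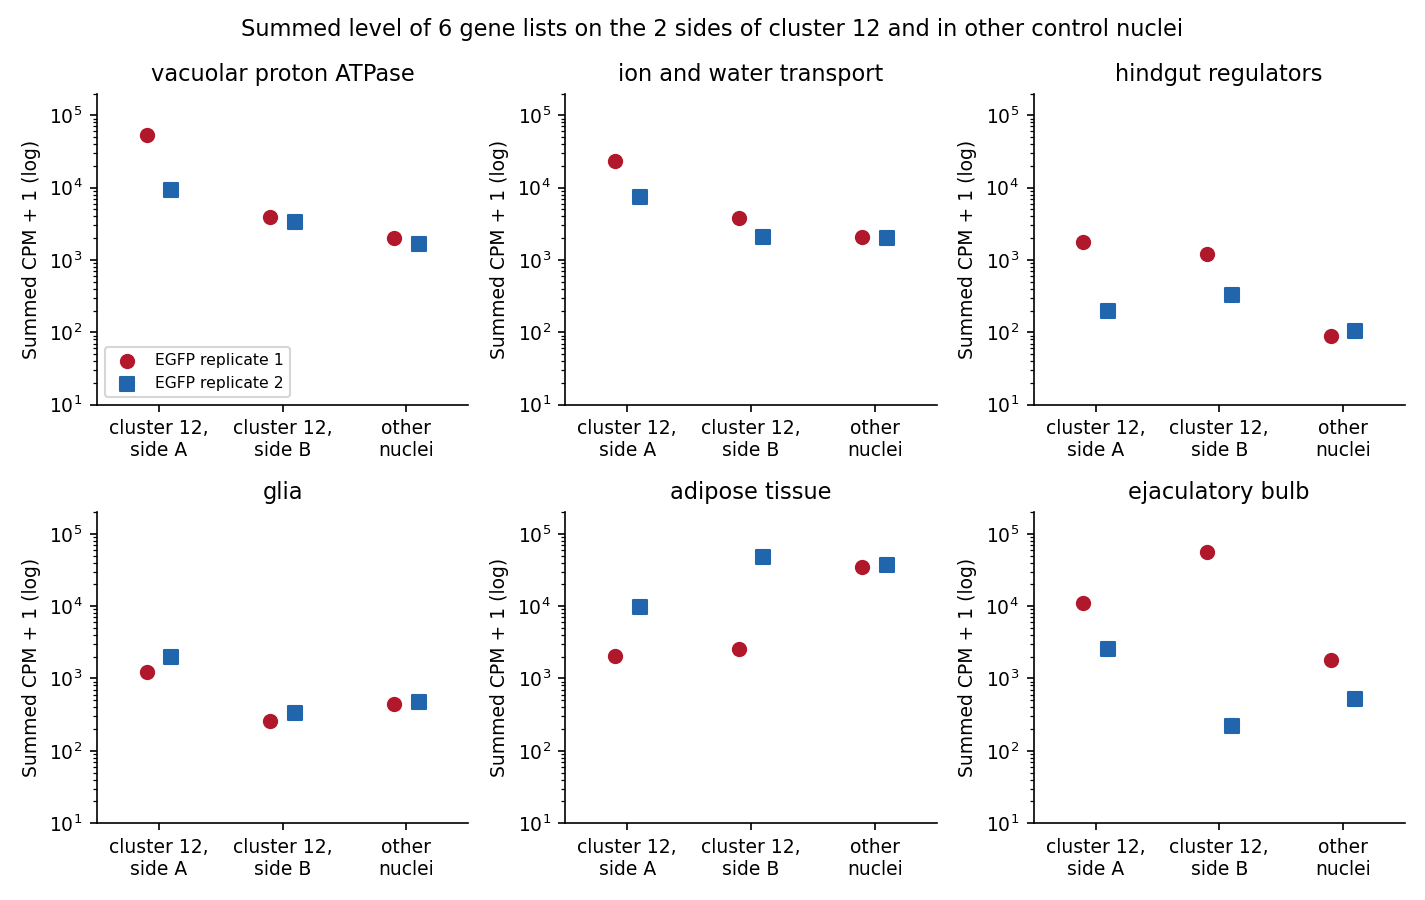
Summed levels of 6 gene lists, in CPM with 1 added on a log axis, on side A and side B of cluster 12 and in the other control nuclei, with a point per oenots>EGFP library. In replicate 1 the V-ATPase list stands at 53372 CPM on side A and 3932 CPM on side B, and in replicate 2 the adipose list at 9683 CPM on side A and 47572 CPM on side B.

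The oenots>tsc1,tsc2 libraries took no part in the clustering and were used to ask whether the genes of cluster 12 go with its markers in other nuclei. Nuclei with a UMI of at least 2 of the 5 markers, called marker-positive, numbered 146 of 7594 (1.92%) and 18 of 2267 (0.794%). *Obp56d* together with *EbpIII* made up 124 and 14 of them. That combination was mostly on side B within cluster 12 but was not particular to cluster 12. In the oenots>EGFP libraries 46 and 20 marker-positive nuclei carried it, whereas cluster 12 had *Obp56d* in 26 nuclei of replicate 1 and 0 of replicate 2. In the assignment described below, made without the 5 markers, 46 of the 146 and 11 of the 18 went to cluster 12. The others fitted another control cluster better, and which one is not given here. Counts were summed per library over marker-positive and over all other nuclei and compared with edgeR's quasi-likelihood test, leaving the 5 markers out. Marker-positive nuclei were deeper, with medians of 543.5 and 706 UMIs, against 430 and 465, and the part of depth in the calls was not tested.

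Of 7146 genes tested, 91 (1.27%) were higher and 44 (0.616%) lower in marker-positive nuclei at a Benjamini-Hochberg adjusted p below 0.05. Both sums of a library come from the same animals. With the library as a replicate block 20 genes (0.28%) were higher and 0 lower, with 194 lower at an unadjusted p below 0.05. DESeq2 covered 11861 genes and called 181 (1.53%) higher and 280 (2.36%) lower. The median log2 difference over all genes was -0.50, and -0.23 when sums were scaled by their totals alone, so values below are relative to a centre that depends on scaling.

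Among the 185 leading genes of cluster 12, 181 were tested, and 29 were called higher and 0 lower, with a median log2 difference of 1.00. Those 29 are 16% of the leading genes, beside 1.27% of all genes. Of the first 20 leading genes, 17 were tested and 11 called. With the library as a block 11 of the 29 held.

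Hindgut regulators were among the genes that rose. *byn* was at 91.0 and 226 CPM in marker-positive nuclei, against 1.8 CPM in the other nuclei of replicate 1 and 0 in those of replicate 2, from 13 UMIs in marker-positive nuclei. Its edgeR log2 difference was 6.37 ± 0.87 (SE, n = 2 libraries) with an adjusted p of 1.1e-09, and 0.0010 with the library as a block. *otp* was at 70.8 and 226 CPM, with an edgeR log2 difference of 5.84 ± 0.87 and an adjusted p of 2.0e-08, and 0.0044 with the block. *fkh* was at 152 and 396 CPM, with an edgeR log2 difference of 4.34 ± 0.81 and an adjusted p of 2.8e-05, which was lost with the block at 0.28. These 3 were the called members of 6 tested of the 9 counted, beside 1.27% of all genes tested. Of the 6, only 4 had a positive difference.

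Other leading genes rose in the same nuclei. *CG34203* was at 313 and 3340 CPM in marker-positive nuclei, with an edgeR log2 difference of 6.04 and an adjusted p of 8.5e-06, and 0.016 with the block. *Snmp2* was at 1850 and 2095 CPM, with an edgeR log2 difference of 6.24 and an adjusted p of 1.3e-06, and *CG33970* at 3549 and 5095 CPM, with 5.02 and 3.9e-06. Both held with the block. *Abd-B*, at 1719 and 3623 CPM, had an edgeR log2 difference of 4.90 and an adjusted p of 7.5e-05, and 0.031 with the block.

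Genes high on side B or on both sides were called in the same nuclei. *Baldspot* was at 6825 and 7303 CPM in marker-positive nuclei, with an edgeR log2 difference of 6.82 ± 0.85 and an adjusted p of 7.2e-12, and *CG4928* at 4246 and 12511 CPM, with 5.03 ± 0.78 and 8.9e-08. *CG11550* and *to* (takeout), named after their values were seen, had edgeR log2 differences of 7.40 and 7.32, and an adjusted p of 7.8e-04 each with the block. *CG11550* had 0 UMIs on side A and 1712 CPM on side B of replicate 1. All 4 genes held with the block.

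Among transport genes, 3 of 20 tested were called higher, beside 1.27% of all genes tested, and none of them with the block. *Irk2* was at 101 and 510 CPM, with an edgeR log2 difference of 3.82 and an adjusted p of 3.7e-04, and 0.48 with the block. *NKCC* had an edgeR log2 difference of 3.79 and an adjusted p of 9.4e-04, and 0.13 with the block. *nrv3*, a beta subunit of the sodium-potassium ATPase, was the third. Of 16 V-ATPase genes tested 0 were called, 14 had a positive difference, and their median log2 difference was 1.97. Their sum was 4934 and 14549 CPM, against 2156 and 1700 CPM. *Rh50* had an edgeR log2 difference of -1.89 with an adjusted p of 0.69, and *Picot* 3.09 with 0.052.

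Few markers of other cell types were called. *ect* of the epidermal list, *CG13618* of the ejaculatory bulb list and *Abd-B* of the ejaculatory duct list were called higher, with an edgeR adjusted p of 9.6e-04, 0.011 and 7.5e-05, and *Abd-B* held with the block. Most other members of these lists went the other way, with 3 of 9, 2 of 8 and 1 of 9 tested genes positive. Their median log2 differences were -0.55, -0.49 and -1.17, beside -0.50 over all genes. The ejaculatory duct, trachea and muscle lists each had 1 gene called lower. *apolpp* fell by 2.77 on the log2 scale, with an edgeR adjusted p of 4.9e-04, and 0.94 with the block, and the adipose list summed to 4691 and 3623 CPM, against 22978 and 17985 CPM. *vvl*, *ImpL2* and *FASN3* were the 3 of 7 oenocyte genes called lower, beside 0.616% of all genes tested. None of the 12 midgut genes tested was called, and their list summed to 1749 and 56.6 CPM, against 2839 and 201 CPM. The part of these lists in the calls was not tested.

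**Figure D4:**
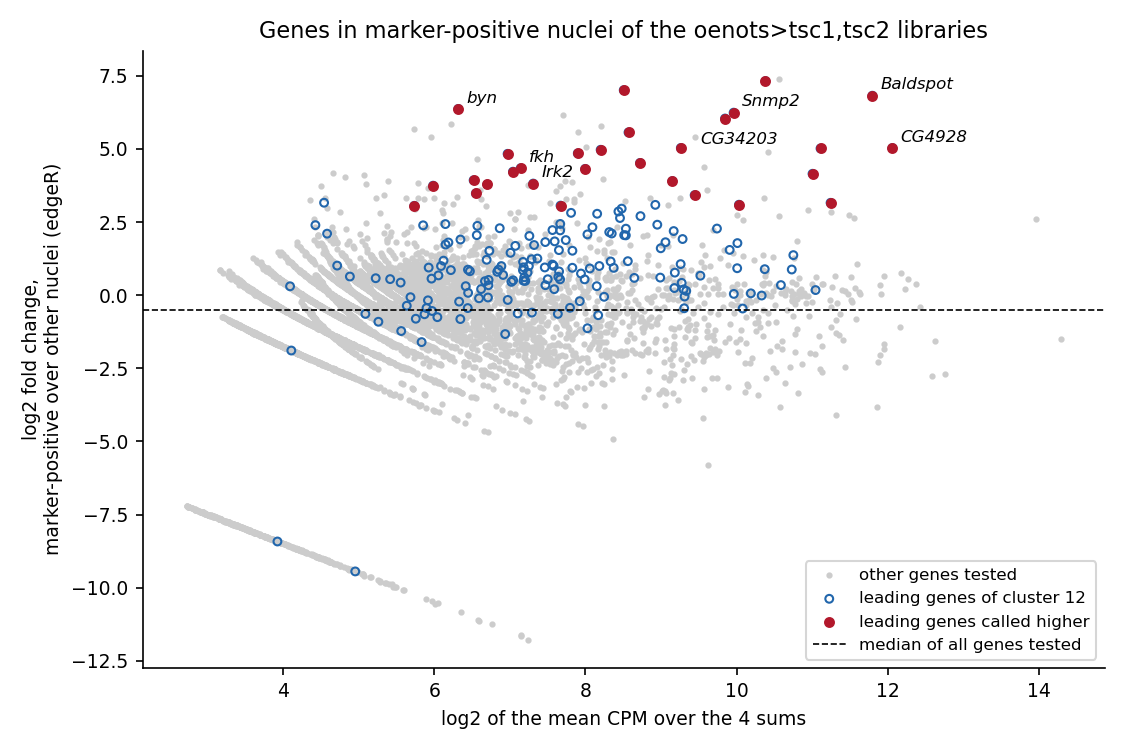
edgeR log2 difference of marker-positive over other nuclei of the oenots>tsc1,tsc2 libraries against the log2 of mean CPM, for 7146 genes, with leading genes of cluster 12 as open circles, those called higher as filled circles and the median of all genes dashed. *byn*, *Baldspot*, *Snmp2* and *CG34203* lie above a log2 difference of 5, and the 29 filled points are all above 0.

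The markers were then read in nuclei chosen without them. Each oenots>tsc1,tsc2 nucleus was assigned to the deposited cluster whose profile fitted it best, with the 5 markers left out of the profiles, and 58 (0.764%) and 19 (0.838%) nuclei went to cluster 12. Of these, 55 and 14 carried at least 1 marker, and 46 and 11 at least 2. They had medians of 608 and 658 UMIs, against 430.5 and 465. As a check between control libraries, profiles of replicate 1 placed 76.0% of replicate 2 nuclei in their deposited cluster but 1 of the 38 cluster 12 nuclei, and profiles of replicate 2 placed 77.4% of replicate 1 nuclei but 15 of its 50. Assignment across libraries was thus poor for these nuclei.

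All 5 markers were higher in the assigned nuclei, in a fit that called 1.92% of 6942 genes higher, and 0.778% with the library as a block. *Obp56d* was at 75743 and 52162 CPM in assigned nuclei, against 406 and 119 CPM, an edgeR log2 difference of 7.54 ± 0.64 with an adjusted p of 2.1e-12. *GstD11* was at 2402 and 1628 CPM, against 13.5 and 4.9 CPM, with an edgeR log2 difference of 7.33 ± 1.06 and an adjusted p of 3.4e-06. *Ggamma30A* was at 700 and 674 CPM, against 11.5 and 8.4 CPM, with 5.61 ± 0.89 and an edgeR adjusted p of 1.6e-05.

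*Nha1*, with 13 and 10 UMIs, was at 303 and 561 CPM in assigned nuclei, against 17.6 and 7.0 CPM, an edgeR log2 difference of 4.46 ± 0.72 with an adjusted p of 2.0e-05, and 0.036 with the block. *EbpIII* was at 81783 and 43852 CPM, against 2096 and 1870 CPM, an edgeR log2 difference of 4.60 ± 0.53 with an adjusted p of 2.9e-08, and 0.11 with the block. The other 3 markers held with the block.

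Nuclei with *Nha1* and nuclei with *GstD11* were then compared over the whole oenots>tsc1,tsc2 libraries, in a comparison added after the embedding was seen. These nuclei were not limited to those like cluster 12. In the oenots>EGFP libraries *Nha1* was in 55 and 16 nuclei, of which 16 and 1 were in cluster 12. *GstD11* was in 46 and 3 nuclei there, of which 15 and 0 were in cluster 12. Nuclei with a UMI of *Nha1* and none of *GstD11* numbered 58 and 10, and nuclei with a UMI of *GstD11* and none of *Nha1* numbered 69 and 11. Of 462 genes tested, edgeR called 0 higher and 0 lower (0% each), with 24 higher and 43 lower at an unadjusted p below 0.05. With the library as a block 4 (0.866%) were higher and 13 (2.81%) lower. DESeq2 covered 8056 genes and called 2 (0.025%) higher and 9 (0.11%) lower.

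*Obp56d* was at 161 and 0 CPM in *Nha1* nuclei, against 45424 and 81730 CPM in *GstD11* nuclei, with an edgeR adjusted p of 0.095, and 0.0066 with the block. *Baldspot* had no UMI in *Nha1* nuclei of either library, which allows 80.4 and 462 CPM, against 7433 and 8613 CPM in *GstD11* nuclei. *Abd-B* was at 107 and 0 CPM, against 2337 and 4306 CPM, and *EbpIII* at 2466 and 3849 CPM, against 47539 and 67986 CPM. All 4 genes were higher on side B than on side A in cluster 12 of replicate 1. All 4 were lower with the block, with an edgeR adjusted p of 0.0064 for *Baldspot*, 0.014 for *Abd-B* and 0.037 for *EbpIII*. They are 4 of the 13 genes lower with the block, and the rest of the 13 are not described here. Of 61 leading genes tested, 3 were lower with the block, beside 2.81% of all 462 genes.

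On the other side *CAH1* was at 482 and 2617 CPM in *Nha1* nuclei and had no UMI in *GstD11* nuclei, with an edgeR adjusted p of 0.077 with the block. The V-ATPase list summed to 10239 and 21398 CPM in *Nha1* nuclei, against 3071 and 9346 CPM, and 7 of its 9 tested genes had a positive difference with 0 called. The 4 genes higher with the block were *CG8997*, *CG10911*, *CG10472* and *Jon25Biii*, the last encoding a trypsin-like protease of the Jonah family. The midgut enterocyte list summed to 23479 and 3541 CPM in *Nha1* nuclei, against 1002 and 91.6 CPM in *GstD11* nuclei. Cluster 7 carried *Nha1* in the controls at 231 and 101 CPM, and the part of midgut nuclei in this comparison was not tested.

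**Figure D5:**
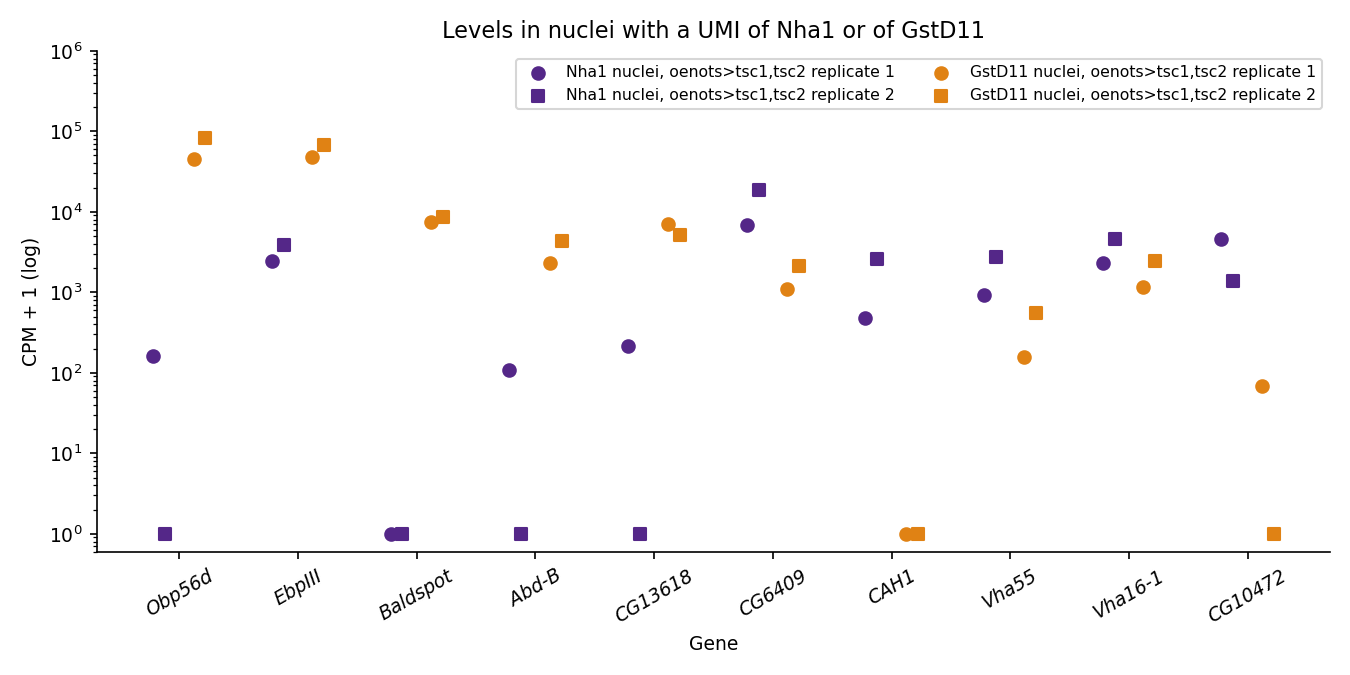
Levels of 10 genes, in CPM with 1 added on a log axis, in *Nha1* nuclei and *GstD11* nuclei of the oenots>tsc1,tsc2 libraries, with a point per library. *Obp56d*, *EbpIII*, *Baldspot*, *Abd-B* and *CG13618* are lower in *Nha1* nuclei of both libraries, and *CG6409*, *CAH1*, *Vha55*, *Vha16-1* and *CG10472* are higher.

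The share of marker-positive nuclei varied widely between libraries of a genotype. It was 1.36 ± 0.798% in oenots>tsc1,tsc2 and 0.642 ± 0.504% in oenots>EGFP libraries (SD, n = 2 each). The difference of 0.717 percentage points had a two-sided exact permutation p of 0.67, and 0.33 is the smallest this design allows, so that the test could not have passed the threshold. The oenots>EGFP libraries had 72 (0.998%) and 23 (0.285%) marker-positive nuclei, of which 45 and 1 were in cluster 12 and 10 and 18 in cluster 3. In the main count the genotypes overlapped. With at least 3 markers required the shares were 0.487% and 0.441%, against 0.333% and 0.0124%, without *EbpIII* among the markers 0.540% and 0.485%, against 0.471% and 0.0124%, and after thinning to 200 UMIs 1.63% and 0.750%, against 0.707% and 0.124%. Under these 3 alternatives both oenots>tsc1,tsc2 libraries were above both oenots>EGFP libraries, with an exact permutation p of 0.33 each. Over whole libraries *Obp56d* was at 1220 and 758 CPM in oenots>tsc1,tsc2, against 371 and 31.6 CPM in oenots>EGFP, and *EbpIII* at 2956 and 2386 CPM, against 979 and 468 CPM. *Obp56d* had 4845 and 1099 UMIs in 201 and 26 oenots>tsc1,tsc2 nuclei (2.65% and 1.15%). In oenots>EGFP it had 1209 and 124 UMIs in 117 and 71 nuclei (1.62% and 0.880%). *EbpIII* had 11742 and 3458 UMIs in 783 and 210 oenots>tsc1,tsc2 nuclei (10.3% and 9.26%). In oenots>EGFP it had 3189 and 1836 UMIs in 432 and 448 nuclei (5.99% and 5.55%). The parts of more nuclei with a UMI and more UMIs per nucleus in the library sums were not tested.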

How the data were processed

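Per the labels and the study's methods, the authors counted UMIs with Cell Ranger 3.1.0 on a FlyBase pre-mRNA reference, subtracted a fixed share of ambient RNA with SoupX, dropped nuclei of extreme total counts, which they took for doublets and dead cells, and clustered the controls with Harmony and Seurat 3.1.2. No further doublet call was made. The deposited counts are whole UMIs, not normalized. They were summed per library and class. Sums of oenots>tsc1,tsc2 nuclei were compared with edgeR 4.0.16 (TMM, filterByExpr, quasi-likelihood test) and DESeq2 1.42.0 in R 4.3.3. Nuclei were assigned by multinomial likelihood (smoothing of 2000 UMIs, cluster shares as prior). Thinned values used 200 UMIs per nucleus. Only the edgeR test without the block was checked on simulated counts. Those counts were drawn independently with a fixed spread, so the check did not cover the pairing by library, the block or DESeq2. Named genes were the 5 markers, the first 20 leading genes, hindgut and transport genes with at least 3 UMIs, the 5 lowest genes and the highest member of each list. The members and lists were chosen with earlier results of these data known. The library pairs the sums, since both come from the same pool of animals, and their deviations correlated at 0.154, 0.169 and 0.132. No sequences were printed. Without the block, edgeR and DESeq2 p-values treat the paired sums of the 2 pools as separate. With the block, edgeR p-values use the spread of the differences within a library. The exact permutation p is over the 4 libraries. Each SE was derived from the edgeR log2 difference and its F statistic.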

Additional observations from a re-analysis of the deposited data

How the results depend on the processing

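The counts of genes called in marker-positive nuclei depended on the setting. Higher, lower and leading genes called were 91, 44 and 29 as reported. They were 24, 11 and 12 with at least 3 markers, 38, 22 and 19 without *EbpIII* among the markers, 181, 280 and 65 with DESeq2, 154, 61 and 57 with totals alone, 27, 1 and 14 at a mean of 100 CPM or more, and 84, 51 and 28 with no filter. With the library as a replicate block, the pairing that the shared pools of animals give, they were 20, 0 and 11. The settings covered different numbers of genes. DESeq2 and the setting with no filter covered 11861, and the mean of 100 CPM or more 1414, against 7146 as reported. All 20 genes called higher with the block were among the 91. Leading genes with at least 20 UMIs gave 24 calls. In each oenots>tsc1,tsc2 library alone, 88 to 91 of the genes called higher, 44 of those called lower and 29 of the leading genes kept their direction, with no test, as is nearly fixed for genes called on the same 2 libraries. The 5 markers in assigned nuclei were called with DESeq2, with totals alone and with the profile of replicate 1 nuclei, and 4 of 5 with the block. A posterior of at least 0.9 kept all 77 nuclei and so tested nothing. Between *Nha1* and *GstD11* nuclei the block called 17 of 462 genes and DESeq2 11 of 8056, against 0 of 462. The difference in share was 0.292 with at least 3 markers, 0.271 without *EbpIII*, 0.776 after thinning and 0.152 to 1.28 leaving out one library. The cause of these differences was not tested. Against the mean over the other clusters *retn* turned to -0.16 on the log2 scale. Without replicate 1 of the controls, the folds of 19 of 26 named genes moved by more than their spread, and *Obp56d* and *GstD11* gave no value. Without replicate 2, 3 of 28 moved, and after thinning to 200 UMIs 14 of 27. The spread was made from the same 2 replicate folds, and the reference fold pooled both replicates, with more cluster 12 UMIs from replicate 1. The counts without a replicate thus follow in large part from that pooling and are no independent check. Cluster 12 of replicate 2 had 19368 UMIs, so a gene at 0 there could have been at up to 155 CPM.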
